A study of Mus musculus with 9 samples.

Results

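The cadherin-11 and large FAT cadherin genes described here are 9 genes, Cdh11, Cdh2, Cdh4, Cdh6, Cdh13, Fat1, Fat3, Fat4 and Dchs1, taken by symbol from the 23420 genes of a table of 9 RNA-seq libraries of mouse ankle cells. All 9 were in the table, and 6 of them (Cdh11, Cdh2, Cdh13, Fat1, Fat4 and Dchs1) reached a value of 10 or more in 3 or more libraries and were tested with all other genes that did so, 11889 in all. Fat3, Cdh4 and Cdh6 had too few reads for a test, and their values are given without one.

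Arthritis tissue-derived synovial fibroblasts (ADSF, n = 3) and arthritis tissue-derived synovial macrophages (ADSM, n = 3) were grown from swollen ankles of C57BL/6 mice with collagen antibody-induced arthritis (CAIA), in which antibodies to type II collagen and then lipopolysaccharide are injected. Normal tissue-derived synovial fibroblasts (NDSF, n = 3) came from ankles of C57BL/6 mice without CAIA, and all cells were at passage 1. Fibroblasts are the collagenase-freed cells that adhered to dishes coated with collagen. Macrophages are those that did not adhere there but did adhere to uncoated dishes, and were later freed of fibroblasts with trypsin. Each culture thus holds whatever else passed these steps. By the study's methods macrophages were cultured longer than fibroblasts, so culture time and cell type cannot be told apart in comparisons with ADSM. No ADSM counterpart from normal ankles was sequenced, and the sources do not say which library came from which animal, so p-values measure only the spread between these libraries.

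Cadherins are calcium-dependent adhesion proteins of the cell surface. Classical cadherins such as cadherin-11 bind the same cadherin on the neighbouring cell and are tied to actin through catenins, and cadherin-11 is known for holding fibroblasts of the synovial lining together. The FAT cadherins and Dachsous carry far more cadherin repeats, and Fat4 and Dchs1 bind each other across cells, a pair known for planar cell polarity and for its link to Hippo signalling.

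Depth and library facts touch every value below. The libraries held 2580998 to 3220692 reads in ADSF, 3142495 to 3351184 in NDSF and 2380483 to 3073890 in ADSM, and values are reads divided by the TMM factor of the library (TMM values), on which 1 read was worth 0.854 to 1.24. NDSF library 3 stood apart from NDSF libraries 1 and 2, with a chi-square per degree of freedom of 21.9 and 17.1 against 1.74 between libraries 1 and 2, and it was the NDSF library nearest the ADSF mean for 5 of the 6 tested cadherin genes. By the study's methods ADSF and ADSM libraries were made with a TruSeq kit and NDSF libraries with a NEBNext kit, while the labels give TruSeq for all, so in the comparison of ADSF with NDSF, ankle state and kit cannot be told apart. Summed fibroblast markers lay at 78948 to 83958 in ADSF, 89117 to 139259 in NDSF and 54.7 to 122 in ADSM, and summed macrophage markers at 836 to 1599 in ADSF, 858 to 2049 in NDSF and 37295 to 40236 in ADSM. Most of the fibroblast sum was Col1a1 and Col1a2, with means of 34672 and 32701 in ADSF. Of the 10 fibroblast markers limma called 0 higher and 3 lower in ADSF than in NDSF, beside 9.88% and 11.3% of all genes. The 3 were Dcn, Lum and Pdgfra (log2 fold changes -3.23, -2.82 and -1.36). The mice were female by the study's methods, yet summed Y-linked genes had 337 to 469 in ADSM and 0 in every fibroblast library, so sex and cell type cannot be told apart in comparisons with ADSM.

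Cadherin-11 was also 1 of the fibroblast markers of the study's RT-qPCR, so its direction against ADSM was known to the study and is no independent finding. Its primer pair is shown because it defines the stretch of the transcript that assay reads. The forward primer lies at chr8:102784981-102785000 in exon 1 and the reverse primer at chr8:102720500-102720519 in exon 2 (GRCm38, the build named mm10, minus strand). Of the 3 Cdh11 transcripts in GENCODE 2 hold both primers, and the exon numbers are those of the longest of these, which has 13 exons. They bound an amplicon of 136 bases that crosses the intron, and are written 5' to 3'.
Cdh11 forward: gacttgtgaatgggactcgg
Cdh11 reverse: gtcttcaaagggccacaaag

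Promoter windows of 250 bases before to 50 after the start site were available from RefSeq (GRCm38.p6) for 4 of the 9 genes. Those of Fat1 and Fat4 are shown because these giant cadherins differed in their behaviour between ADSF and NDSF. The Fat1 window is chr8:44949958-44950257 and the Fat4 window chr3:38886690-38886989, both on the plus strand, and both start sites equal the start of the deposited gene. Capitals mark the E-box CANNTG, the letters read by Twist and Snail factors, and the TEAD core GGAATG, each searched on both strands.
Fat1 promoter: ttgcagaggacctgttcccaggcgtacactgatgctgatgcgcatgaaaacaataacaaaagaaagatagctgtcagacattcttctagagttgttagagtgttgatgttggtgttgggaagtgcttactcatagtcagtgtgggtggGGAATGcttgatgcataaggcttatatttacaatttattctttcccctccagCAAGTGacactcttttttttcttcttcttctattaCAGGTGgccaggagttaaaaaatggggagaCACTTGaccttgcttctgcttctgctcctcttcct
Fat4 promoter: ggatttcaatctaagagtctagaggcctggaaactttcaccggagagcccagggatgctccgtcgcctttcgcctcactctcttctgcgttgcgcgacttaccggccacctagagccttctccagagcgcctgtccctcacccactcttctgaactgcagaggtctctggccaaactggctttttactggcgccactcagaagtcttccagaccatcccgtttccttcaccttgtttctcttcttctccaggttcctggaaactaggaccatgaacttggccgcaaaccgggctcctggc
The Fat1 window held 3 E-boxes, at -50, -15 and 16 from the start site, and 1 TEAD core at -102, none overlapping another. The Fat4 window held 0 of either. Over 32851 RefSeq windows of this length 72.3% held an E-box and 14.7% a TEAD core, and a match is only a match of letters. The Fat1 window held 2 CG pairs at 42.7% G and C, and the Fat4 window 13 at 55.7%. Both start sites are those of the annotation. Whether these cells start transcripts there was not tested, so the matches are no known difference between the promoters in use.

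Between ADSF and NDSF, the comparison that asks what differed between fibroblasts of arthritic and normal ankles, 2 of the 9 cadherin genes were higher in ADSF (Fat1 and Cdh2), 1 was lower (Dchs1) and 3 tested genes were not called by limma at an adjusted p of 0.05. Over all 11889 genes 9.88% were called higher and 11.3% lower, 21.2% in either direction. Dchs1 reached a value of 10 in 3 libraries only with those of NDSF, where it was highest, so its call is a description. The median log2 fold change was 0.02 over the 6 tested cadherin genes and -0.01 over all genes.

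**Figure D1:**
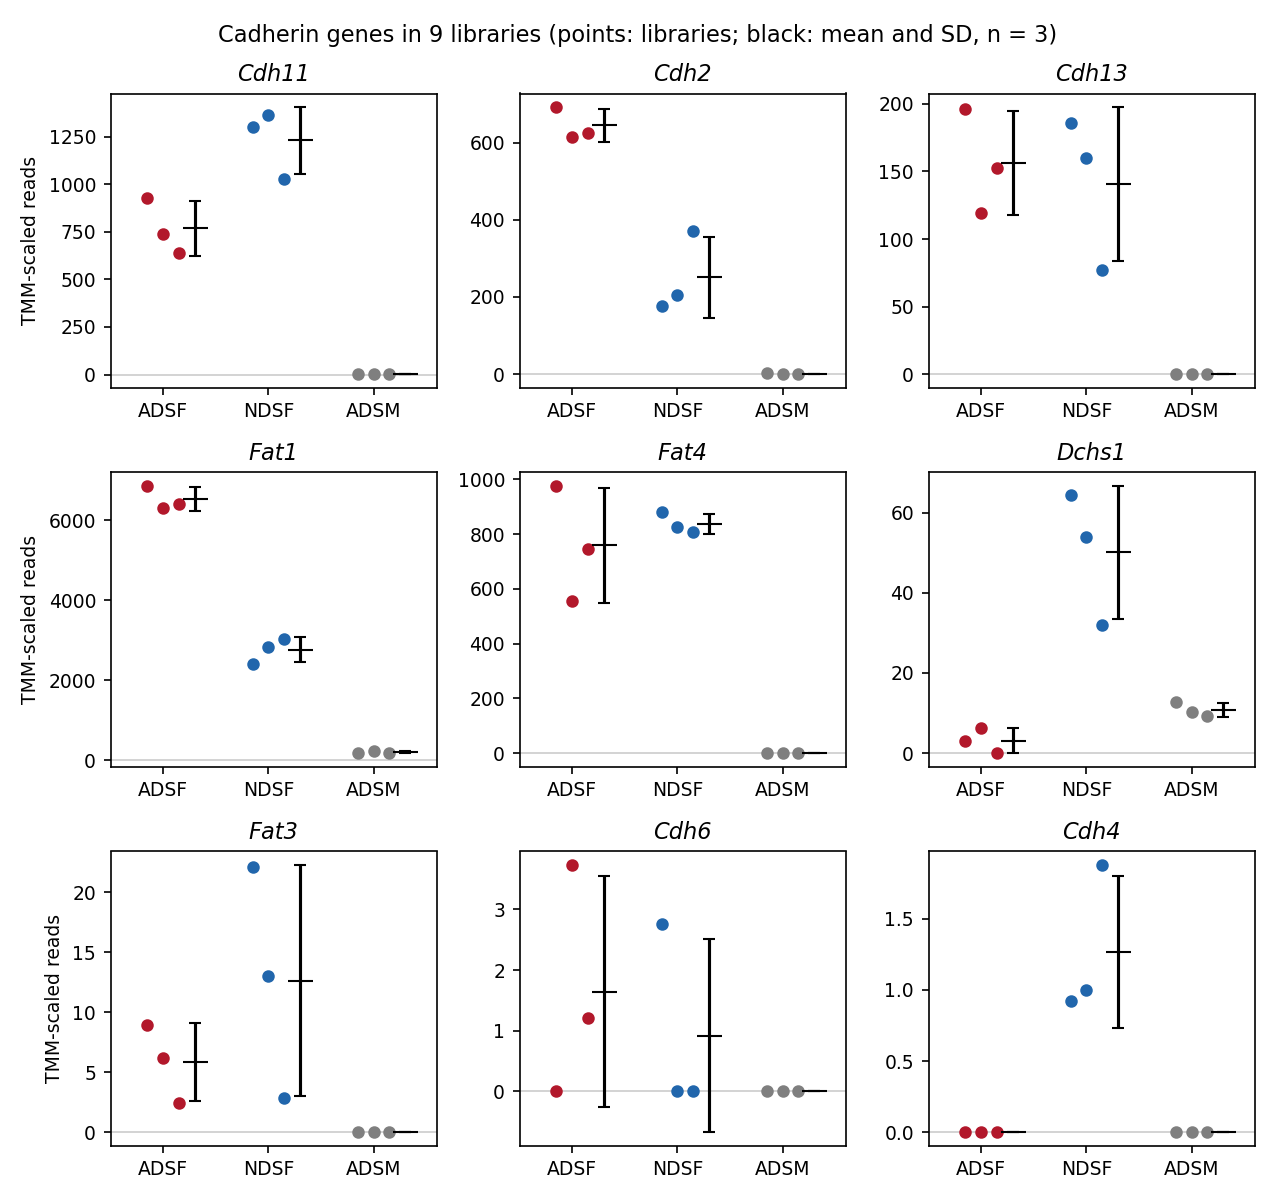
TMM values (reads divided by the library's TMM factor, linear axes with a scale for each gene) of the 9 cadherin genes in the libraries of ADSF, NDSF and ADSM, with the mean and SD of 3 libraries in black. Fat1 lay at 6304 to 6857 in ADSF, 2411 to 3027 in NDSF and 178 to 222 in ADSM, and Dchs1 at 0 to 6.22 in ADSF, 31.9 to 64.4 in NDSF and 9.35 to 12.8 in ADSM.

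Cdh11 (chr8:102632995-102785111, minus strand, 13 exon intervals), the classical cadherin of the synovial lining, had 925, 739 and 638 TMM in ADSF, 1299, 1360 and 1029 TMM in NDSF and 1.71, 2.08 and 4.67 TMM in ADSM. Every ADSF library lay below every NDSF library, as was so for 19.7% of all genes, and ADSM was near the floor of detection. The log2 fold change of ADSF over NDSF was -0.69 (SE 0.26, 95% interval -1.25 to -0.12), with a limma adjusted p of 0.08197, which misses the threshold. It passed with edgeR on the recovered reads (log2 fold change -0.67, adjusted p = 0.01754) and with limma when NDSF library 3 (-0.81, adjusted p = 0.04783) or ADSM library 3 (adjusted p = 0.02224) was left out.

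Cdh2 encodes N-cadherin, the classical cadherin of mesenchymal and neural cells, and lies on chromosome 18. It had 693, 615 and 626 TMM in ADSF and 177, 205 and 371 TMM in NDSF, while ADSM had 1.71, 0 and 0 TMM. All ADSF libraries exceeded all NDSF libraries, as was so for 18.4% of all genes, and NDSF library 3 was the highest of its group. The log2 fold change of ADSF over NDSF was 1.43 (SE 0.38, 95% interval 0.59 to 2.28, limma adjusted p = 0.02555). The call was lost without any 1 of ADSF library 1, 2 or 3 or NDSF library 1 or 2, with limma adjusted p of 0.06901, 0.07666, 0.0741, 0.1082 and 0.1059 in that order, and it held without NDSF library 3 (log2 fold change 1.75, adjusted p = 0.005967).

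Cdh13 (chr8:118283755-119323448, plus strand) encodes T-cadherin, which is held in the membrane by a lipid anchor and lacks the tail that binds catenins. Its TMM values were 197, 119 and 153 in ADSF, 186, 160 and 77.0 in NDSF and 0 in each ADSM library. The fibroblast groups overlapped. The log2 fold change of ADSF over NDSF was 0.21 (95% interval -0.50 to 0.93, limma adjusted p = 0.6712), so a difference of either sign within that interval cannot be told from none.

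Cdh4, which encodes R-cadherin, and Cdh6, which encodes K-cadherin, were hardly read. Cdh4 had 0 reads in every ADSF library, 1, 1 and 2 reads in NDSF and 0 in ADSM. Cdh6 had 0, 3 and 1 reads in ADSF, 3, 0 and 0 in NDSF and 0 in ADSM. Neither had more than 3 reads in any library. Without the low-value filter limma called Cdh4 lower in ADSF than in NDSF (log2 fold change -1.16, adjusted p = 0.01634) and higher in NDSF than in ADSM (adjusted p = 0.003033), on 4 reads in NDSF and 0 elsewhere.

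Fat1 (chr8:44950208-45052257, plus strand, 26 exon intervals), a giant cadherin known for its link to actin at cell edges, had the highest TMM values of all 9 genes when values were not divided by gene length. It reached 6857, 6304 and 6408 TMM in ADSF and 2411, 2833 and 3027 TMM in NDSF, with 185, 222 and 178 TMM in ADSM. The 3 groups did not overlap, and libraries within a group lay close together. For 18.4% of all genes every ADSF library lay above every NDSF library. The share of genes with all 3 groups apart was not computed. The log2 fold change of ADSF over NDSF was 1.25 (SE 0.12, 95% interval 0.98 to 1.51, limma adjusted p = 0.0001978), from 17304 reads in ADSF and 8681 in NDSF. This call held under all 19 alternatives tried, with log2 fold changes of 1.15 to 1.32. A GENCODE antisense gene, Gm2366, overlaps its exons, and use of strand in the counting is not given.

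Fat4 (chr3:38886940-39011983, plus strand), the receptor of the Fat4 and Dchs1 pair, had 976, 556 and 746 TMM in ADSF, 879, 827 and 808 TMM in NDSF and 0.854, 0 and 0.935 TMM in ADSM. ADSF spanned the whole NDSF range. The log2 fold change of ADSF over NDSF was -0.18 (95% interval -0.76 to 0.41, limma adjusted p = 0.6634). The antisense genes C230034O21Rik and Gm43539 overlap its exons in GENCODE.

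Dchs1 (chr7:105752989-105787550, minus strand, 21 exon intervals), the Dachsous ligand that Fat4 binds, went the other way from Fat1. It had 2.98, 6.22 and 0 TMM in ADSF (8 reads in all), 64.4, 53.9 and 31.9 TMM in NDSF (158 reads) and 12.8, 10.4 and 9.35 TMM in ADSM (35 reads). ADSF was lowest, ADSM between and NDSF highest, with no overlap between any of these groups. For 19.7% of all genes every ADSF library lay below every NDSF library. The share of genes with all 3 groups apart was not computed. The log2 fold change of ADSF over NDSF was -4.00 (SE 0.60, 95% interval -5.33 to -2.68, limma adjusted p = 0.002135), and the ratio of reads after scaling was 0.0604 (95% counting interval 0.0256 to 0.122). No ADSF library reached 10, nor did ADSM library 3. Dchs1 thus passed the low-value filter only with NDSF, where it was highest, and this call is a description. Over the 19 alternatives, all of which kept the call, the log2 fold change was -4.62 to -2.80, and it was -3.20 without ADSF library 3, which had no read of Dchs1. The pseudogene Gm15645 overlaps its exons on the other strand in GENCODE.

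Fat3 (chr9:15910193-16378231, minus strand), a FAT cadherin known from the shape of retinal neurons, had 8.93, 6.22 and 2.40 TMM in ADSF, 22.1, 13.0 and 2.82 TMM in NDSF and 0 in ADSM. The fibroblast groups overlapped through NDSF library 3. By reads, 16 in ADSF stood against 40 in NDSF, a scaled ratio of 0.477 with a 95% counting interval of 0.250 to 0.871, which covers counting error only and not the spread between libraries.

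**Figure D2:**
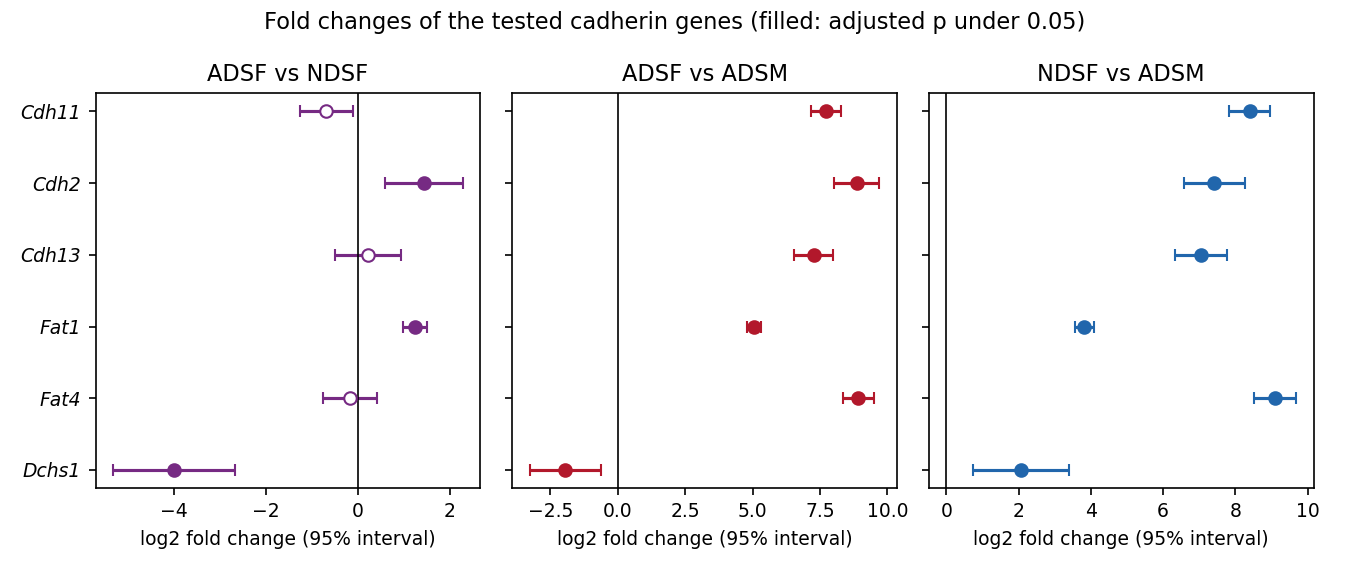
Log2 fold changes with 95% intervals (x axis) of the 6 tested cadherin genes for ADSF over NDSF, ADSF over ADSM and NDSF over ADSM, filled where the limma adjusted p was under 0.05. Between ADSF and NDSF, Cdh2 (1.43) and Fat1 (1.25) lay above 0 and Dchs1 (-4.00) below, and Dchs1 was the gene with opposite signs over ADSM, -1.94 in ADSF and 2.06 in NDSF.

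Against ADSM, the comparison of fibroblasts with macrophages of arthritic ankles, 5 of the 9 genes were higher in ADSF and 1, Dchs1, was lower, where limma called 41% of all genes higher and 30.1% lower. NDSF had 6 higher and 0 lower, where 43.3% of all genes were called higher and 32% lower. Cdh11, Cdh2, Cdh13 and Fat4 had at most 9 reads over the 3 ADSM libraries and passed the filter through the fibroblast libraries alone, so these counts are a description. Among tested genes the libraries did not overlap in either comparison, where 43.3% of all genes lay above ADSM and 33.4% below it in every ADSF library, and 44.5% above and 33.1% below in every NDSF library. Both comparisons share the ADSM libraries, and limma called 71.1% and 75.4% of all genes in them in either direction, ADSF over ADSM first.

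Reads for the classical cadherins in ADSM were few. Ratios of reads were scaled by the TMM factors of the libraries. The reads of Cdh11 were 277 times as many in ADSF as in ADSM (95% counting interval 146 to 607, 9 reads in ADSM) and 437 times as many in NDSF (230 to 956). For Cdh2 the ratio to ADSM was 1038 in ADSF (287 to 8581, 2 reads in ADSM) and 402 in NDSF (111 to 3328). Cdh13 had no read in ADSM and was at least 170-fold higher in ADSF and at least 150.4-fold higher in NDSF, counting 3 reads over the ADSM group as the floor.

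The giant cadherins divided in ADSM. Fat4 was nearly unread there, with a ratio of 1243 in ADSF (344 to 10273, 2 reads in ADSM) and 1343 in NDSF (371 to 11098). Fat1 was lower in ADSM but clearly present, with 620 reads, and its log2 fold changes were 5.06 in ADSF (SE 0.12) and 3.82 in NDSF over ADSM (limma adjusted p = 6.986e-11 and 4.23e-10). Dchs1 was lower in ADSF than in ADSM (log2 fold change -1.94, SE 0.60, limma adjusted p = 0.01342) and higher in NDSF than in ADSM (2.06, SE 0.60, adjusted p = 0.009002). It passed the low-value filter only with NDSF, so its call of NDSF over ADSM is a description. In bulk libraries fewer cells of a type and less RNA per cell cannot be told apart.

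Levels of different genes were compared per kilobase of exon. In ADSF the mean TMM value per kb was 446 ± 20.1 for Fat1, 182 ± 34.5 for Cdh11, 139 ± 9.06 for Cdh2, 68.2 ± 16.9 for Cdh13 and 47.2 ± 13.0 for Fat4 (SD, n = 3). Fat1 stood clear of the rest, while the ranges of mean ± SD overlapped for Cdh11 and Cdh2, and for Cdh13 and Fat4. Within every ADSF library, however, Cdh11 lay above Cdh2 and Cdh13 above Fat4 per kb. In NDSF the order began with Cdh11 at 292 ± 41.8 and Fat1 at 188 ± 21.5, followed by Cdh13 at 61.5 ± 24.8, Cdh2 at 54.0 ± 22.6 and Fat4 at 52.0 ± 2.27, the last 3 within their SDs, and Dchs1 at 4.70 ± 1.56 (SD, n = 3). In ADSM Fat1 had 13.3 ± 1.64, Dchs1 1.02 ± 0.167 and Cdh11 0.669 ± 0.383 (SD, n = 3).

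The deposited FPKM values, given for ADSF and ADSM alone, put the same 5 genes in the same order in ADSF. Fat1 had 156 ± 6.63 FPKM in ADSF, above 97.83% of the genes listed, and Cdh11 had 66.3 ± 12.02 FPKM, above 94.58% (SD, n = 3). Cdh2 followed with 51.0 ± 3.04, Cdh13 with 31.2 ± 7.90 and Fat4 with 16.7 ± 4.67 FPKM in ADSF. In ADSM Fat1 had 4.57 ± 0.625 FPKM, and the other 8 genes averaged under 1 FPKM.

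Summed per kb over the 9 genes, the TMM value was 883 ± 87.7 in ADSF, 654 ± 34.8 in NDSF and 15.2 ± 1.31 in ADSM (SD, n = 3). The make-up of that sum differed between the fibroblasts. Fat1 took 47.6, 52.1 and 52.3% in ADSF against 25.2, 28.2 and 33.5% in NDSF, and 86.1, 91.2 and 85.6% in ADSM. Cdh11 took 22.3, 21.2 and 18.1% in ADSF against 47.0, 46.9 and 39.5% in NDSF, so that Fat1 led in every ADSF library and Cdh11 in every NDSF library. Shares of 1 sum are not independent of each other, and no test was made on them.

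**Figure D3:**
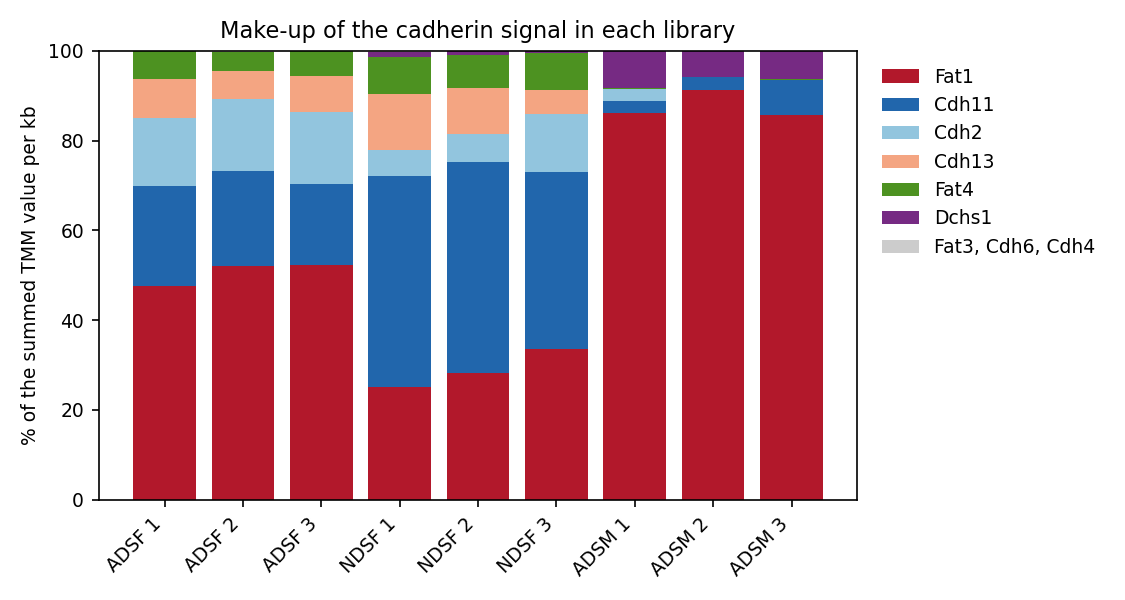
Share (%) of the summed TMM value per kb of exon that each cadherin gene took in every library of ADSF, NDSF and ADSM, as stacked bars from 0 to 100. Fat1 averaged 50.7% in ADSF, 28.9% in NDSF and 87.6% in ADSM, and Cdh11 averaged 20.5% in ADSF, 44.5% in NDSF and 4.51% in ADSM.

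Plain ratios of 2 genes within a library do not depend on how the library was scaled, and 3 such ratios were compared between ADSF and NDSF. Their log2 differences and tests used log2(value + 1), which does depend on scaling where values are low, as for Dchs1 in ADSF. The ratio of Cdh2 to Cdh11, N-cadherin over cadherin-11, was 0.749, 0.832 and 0.981 in ADSF and 0.136, 0.151 and 0.360 in NDSF. All ADSF libraries exceeded all NDSF libraries, and the mean log2 difference was 2.12. The ratio of Fat1 to Fat4 was 7.03, 11.3 and 8.58 in ADSF and 2.74, 3.43 and 3.75 in NDSF, a mean log2 difference of 1.43 without overlap. The ratio of Dchs1 to Fat4, ligand over receptor, was 0.00305, 0.0112 and 0 in ADSF and 0.0733, 0.0652 and 0.0395 in NDSF, a mean log2 difference of -3.82 on the log2(value + 1) scale. The exact two-sided permutation p was 0.1 for each of the 3 ratios (0.1 also after Benjamini-Hochberg adjustment over the 3), which is the smallest value that 3 against 3 libraries allow.

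**Figure D4:**
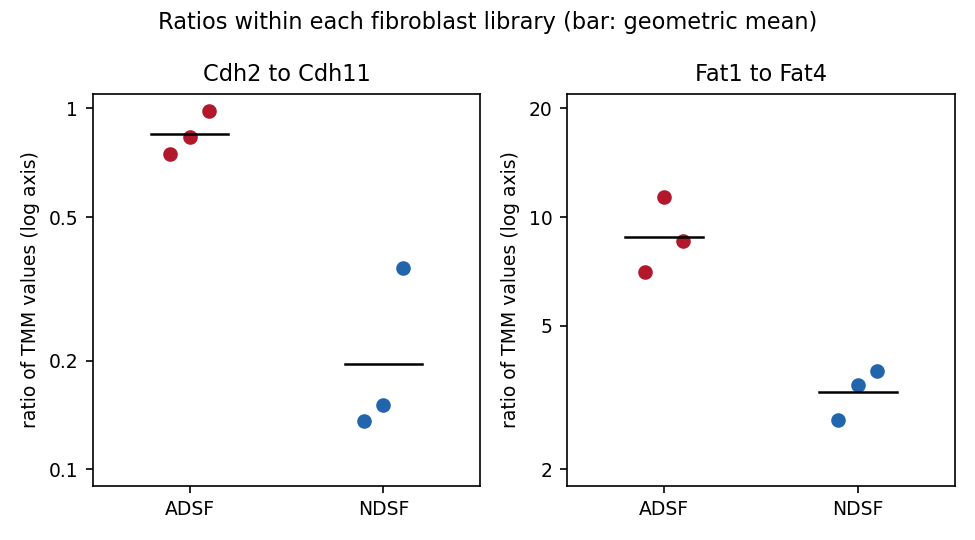
Within-library ratios of TMM values on log axes, Cdh2 to Cdh11 and Fat1 to Fat4, for the 3 libraries each of ADSF and NDSF, with the geometric mean as a bar. The Cdh2 to Cdh11 ratio lay at 0.749 to 0.981 in ADSF and 0.136 to 0.360 in NDSF, and the Fat1 to Fat4 ratio at 7.03 to 11.3 in ADSF and 2.74 to 3.75 in NDSF.

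The genes nearest Cdh11 over the 9 libraries were Npdc1, Prkcdbp, Emilin1, Nid2 and Nuak1, by the root mean square difference of log2(value + 1) after each gene's mean was subtracted, at 0.117, 0.144, 0.212, 0.223 and 0.225 in that order. Emilin1, a glycoprotein of elastic fibres, averaged 711 ± 162 TMM in ADSF, 1288 ± 319 in NDSF and 3.45 ± 1.09 in ADSM (SD, n = 3). Nid2, the basement membrane protein nidogen-2, averaged 368 ± 113 TMM in ADSF, 688 ± 37.5 in NDSF and 1.25 ± 0.541 in ADSM (SD, n = 3). The 9 libraries fall into 3 groups, so they are not 9 independent points, and no p was computed.

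Other cadherins were sparse. Of 15 other classical cadherins 3 could be tested between ADSF and NDSF, with 1 higher and 1 lower (median log2 fold change 0.29), beside 9.88% higher and 11.3% lower over all genes. Cdh3, which encodes P-cadherin, had 122 to 271 TMM in the 3 ADSF libraries, 6.44, 6.99 and 65.7 TMM in NDSF and 0 in ADSM, with a log2 fold change of 3.68 of ADSF over NDSF (SE 0.71, limma adjusted p = 0.006535). Every ADSF library thus lay above every NDSF library for Cdh3, as for 18.4% of all genes, with NDSF library 3 again nearest ADSF. Outside ADSF, Cdh3 reached 10 in NDSF library 3 alone. It thus passed the low-value filter through ADSF, and its call is a description. Cdh5, which encodes the endothelial VE-cadherin, had 2.98, 2.49 and 2.40 TMM in ADSF and 126, 90.9 and 31.9 TMM in NDSF (log2 fold change -4.33, SE 0.52, limma adjusted p = 0.0006396). It passed the low-value filter through NDSF alone and failed it without NDSF library 3, so its call is a description. Cdh1, E-cadherin, averaged 0.662 TMM in ADSF, 0.313 in NDSF and 0 in ADSM, and is named after its values were seen, as are Cdh15 and Cdh19 below.

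Markers of other cell types, some cadherins among them, also differed in level between the groups. Summed endothelial markers, Cdh5 among the 8, were 51.7 to 62.5 in ADSF, 148 to 446 in NDSF and 1.04 to 3.42 in ADSM. Summed skeletal muscle markers, 12 genes with the satellite cell cadherin Cdh15, were 63.5 to 108 in ADSF, 1061 to 2730 in NDSF and 5.19 to 7.48 in ADSM. All 8 tested muscle markers were lower in ADSF by limma (2 of the 2 testable without NDSF library 3), where 11.3% of all genes were. The markers not testable without that library passed the filter through NDSF alone, so this count is a description. Cdh15 itself had 0, 1.24 and 0 TMM in ADSF against 13.8, 13.0 and 3.75 TMM in NDSF. Summed Schwann cell markers, 8 genes with Cdh19, were 26.8 to 33.6 in ADSF, 72.3 to 237 in NDSF and 19.7 to 24.3 in ADSM. Cdh19 itself had 1.99 to 7.47 TMM in ADSF and 3.75 to 20.2 TMM in NDSF, and these groups overlapped. Cdh15 and Cdh19 did not pass the low-value filter and have no test, and each is part of its own list's sum. Of the mural cell markers 0 were higher and 3 of 7 tested lower in ADSF by limma (1 higher and 4 lower at an unadjusted p under 0.05, 1 higher by edgeR), and of the chondrocyte and osteoblast markers 1 was higher and 3 of 8 lower. Over all genes limma called 9.88% higher and 11.3% lower. Summed epithelial markers did not exceed 7.99 in any library, and 3 of those 8 genes had no read at all. The 9 cadherin genes are on none of these marker lists, and the part of such cells in their values was not tested.

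The remaining cadherin lists held few tested genes between ADSF and NDSF, where limma called 9.88% of all genes higher and 11.3% lower. With so few genes, their counts of calls cannot be told from these shares. Of 12 genes listed as other large and seven-pass cadherins 3 passed the low-value filter, Cdh17, Clstn1 and Clstn3. Of these 0 were called in either direction by limma or edgeR, with 0 at an unadjusted p under 0.05. The FAT and seven-pass Celsr genes of that list had too few reads for a test, so the result does not cover them. The log2 fold changes were -0.22 for Cdh17 and 0.18 for Clstn1, a calsyntenin. Clstn3, another calsyntenin, had no read in ADSF or NDSF, averaged 66.5 ± 5.77 TMM in ADSM (SD, n = 3) and passed the filter through ADSM alone, so it gives no comparison of the fibroblasts. Of 11 protocadherins outside the gene clusters 5 were tested and 0 were called by limma (median -0.47; 1 lower at an unadjusted p under 0.05), with 1 called lower by edgeR and 1 lower and 1 higher by limma without NDSF library 3. Pcdh19, a protocadherin of neural development, averaged 364 ± 156 TMM in ADSF, 239 ± 33.8 in NDSF and 0 in ADSM (SD, n = 3), and its difference between the fibroblasts missed the threshold (limma adjusted p = 0.1952). Of 14 desmosomal genes 2 were tested, and Pkp2, a plakophilin of the desmosome plaque, was higher in ADSF, with 20.8, 27.4 and 25.2 TMM against 0.920, 0 and 13.1 TMM in NDSF (log2 fold change 3.08, limma adjusted p = 0.01707).

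Catenins and junction adaptors, which tie classical cadherins to actin, held 16 tested genes, of which limma called 3 higher and 0 lower in ADSF than in NDSF (median log2 fold change 0.31, against -0.01 over all genes; 5 higher without NDSF library 3). Limma called 9.88% of all genes higher and 11.3% lower. At an unadjusted p under 0.05 limma had 5 of the adaptors higher and 2 lower, and edgeR called 3 higher and 0 lower. Vcl, which encodes vinculin, had 2952, 3017 and 3397 TMM in ADSF and 1569, 1699 and 2659 TMM in NDSF (log2 fold change 0.70, limma adjusted p = 0.01798). Ctnnd1, p120-catenin, which holds cadherins at the surface, averaged 1606 ± 200.2 TMM in ADSF and 1165 ± 16.7 TMM in NDSF (SD, n = 3; log2 fold change 0.46, adjusted p = 0.0124). Pvrl1, nectin-1, rose with a log2 fold change of 1.18 (adjusted p = 0.00441). Ctnnb1, beta-catenin, averaged 2121 ± 105 TMM in ADSF and 2275 ± 96.9 TMM in NDSF, and was not called (adjusted p = 0.4944). Over ADSM 14 of these 16 genes were higher in ADSF and 2 lower, beside 41% higher and 30.1% lower over all genes. Of the 16 genes 2 had no read in ADSM and passed the filter through the fibroblasts, so these counts are a description.

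**Figure D5:**
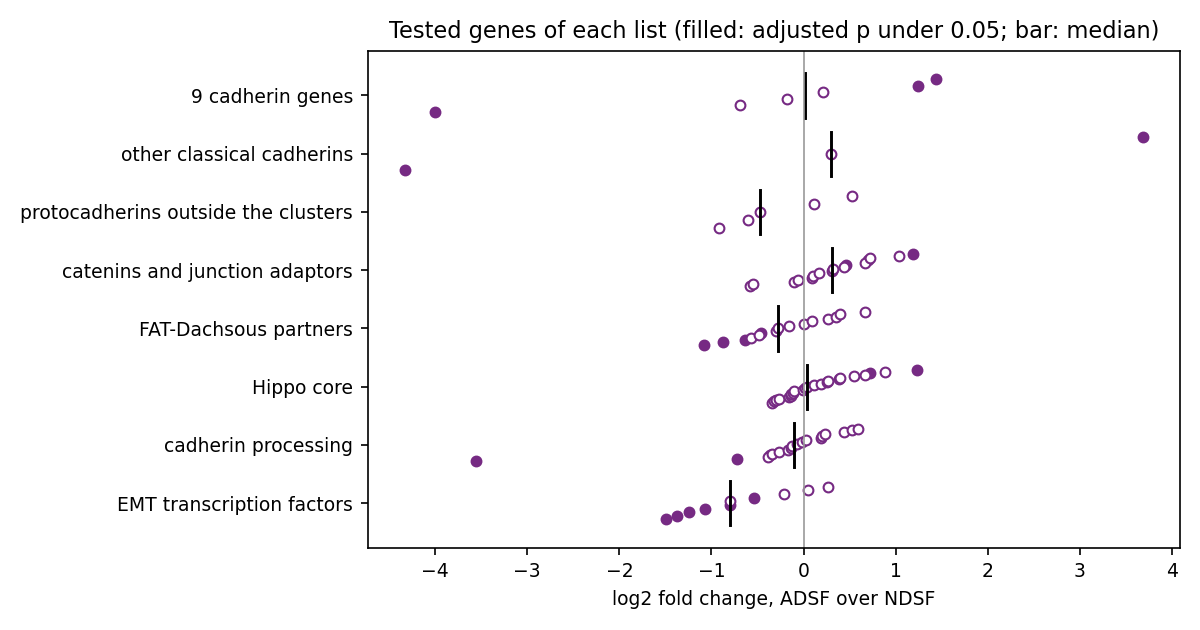
Log2 fold changes of ADSF over NDSF (x axis) for the tested genes of the 9 cadherin genes and of 7 lists, filled where the limma adjusted p was under 0.05, with the median as a bar. The median of the factors of epithelial-mesenchymal transition lay at -0.80 with 6 of 10 genes called lower, and that of the Hippo genes at 0.04.

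Partners of FAT and Dachsous cadherins held 15 tested genes, with 0 higher and 4 lower in ADSF than in NDSF by limma (median log2 fold change -0.28), beside 9.88% higher and 11.3% lower over all genes. At an unadjusted p under 0.05 limma had 1 higher and 5 lower, and edgeR called 2 higher and 4 lower. The 4 lower genes were Lix1l (-0.64, limma adjusted p = 0.01247), a homologue of the Drosophila Fat-binding protein Lowfat, the atrophins Atn1 (-0.46, adjusted p = 0.04763) and Rere (-0.88, adjusted p = 0.02227), and the polarity gene Prickle1 (-1.08, adjusted p = 0.01613). Prickle1 had 28.8, 34.9 and 39.7 TMM in ADSF and 88.4, 79.9 and 56.3 TMM in NDSF, and every ADSF library lay below every NDSF library, as for 19.7% of all genes. Fjx1, the homologue of the Drosophila kinase Four-jointed that acts on Fat and Dachsous, averaged 9.01 ± 3.78 TMM in ADSF and 13.7 ± 5.27 TMM in NDSF (SD, n = 3) and was not called (limma adjusted p = 0.3184).

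The Hippo genes, which restrain growth through the co-activators Yap1 and Wwtr1, held 23 tested members, 2 higher and 0 lower in ADSF than in NDSF by limma (median log2 fold change 0.04; 2 higher and 2 lower at an unadjusted p under 0.05). Over all genes limma called 9.88% higher and 11.3% lower, so 2 of 23 is near the share of all genes. With library totals in place of TMM 1 was higher and 1 lower, edgeR called 4 higher and 0 lower, and limma without NDSF library 3 called 3 lower. Amot, angiomotin, which binds Yap1, had 384, 397 and 325 TMM in ADSF and 131, 138 and 211 TMM in NDSF (log2 fold change 1.23, limma adjusted p = 0.01542). Mob1b, a partner of the Lats kinases, was also higher (log2 fold change 0.72, adjusted p = 0.03588). Yap1 and Wwtr1 had no read in any ADSM library and were not called between the fibroblasts, at 537 ± 36.5 and 391 ± 39.5 TMM in ADSF and 448 ± 31.8 and 437 ± 29.2 TMM in NDSF (SD, n = 3). Over ADSM 19 of the 23 genes were higher in ADSF and 3 lower, a description only, since 4 had no read in ADSM and passed the filter through the fibroblasts (41% and 30.1% over all genes).

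Genes that process cadherins, the proteases that shed and cut them and the Tmtc enzymes that add mannose to them, held 18 tested members, 0 higher and 3 lower in ADSF than in NDSF by limma (median log2 fold change -0.10; 2 higher and 4 lower without NDSF library 3, and likewise 2 and 4 at an unadjusted p under 0.05; edgeR called 0 and 3). Limma called 9.88% of all genes higher and 11.3% lower. Tmtc1 had 25.8, 8.71 and 6.01 TMM in ADSF and 189, 170 and 91.0 TMM in NDSF (log2 fold change -3.56, SE 0.51, limma adjusted p = 0.00183). Outside NDSF, Tmtc1 reached 10 in ADSF library 1 alone. It thus passed the low-value filter through NDSF, and its call is a description. Tmtc2, Tmtc3 and Tmtc4, the other members of that family, had log2 fold changes of 0.44, 0.59 and 0.53 and were not called (adjusted p = 0.3603, 0.09608 and 0.1081). The sheddase Adam17 was lower in ADSF (-0.72, adjusted p = 0.006024), as was the gamma-secretase subunit Aph1a (-0.36, adjusted p = 0.01725).

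Transcription factors of epithelial-mesenchymal transition, several of which are known to bind E-boxes of cadherin genes, held 10 tested members, 0 higher and 6 lower in ADSF than in NDSF by limma (median log2 fold change -0.80, against -0.01 over all genes). Over all genes 9.88% were called higher and 11.3% lower. The same count of 6 lower was found with library totals, with upper-quartile scaling and without NDSF library 3, and edgeR called 7. At an unadjusted p under 0.05 limma had 0 higher and 7 lower, and edgeR called 0 higher. Prrx1, a limb mesenchyme homeobox factor, had 727, 601 and 536 TMM in ADSF and 2107, 1950 and 1276 TMM in NDSF (log2 fold change -1.49, limma adjusted p = 0.01208). Twist1 had 68.5, 90.9 and 120 TMM in ADSF and 250.3, 268 and 198 TMM in NDSF (-1.37, adjusted p = 0.0113). Twist2 (-1.25, adjusted p = 0.02745) and Snai2 (-1.07, adjusted p = 0.03103) were also lower in ADSF by limma. For Twist1, Twist2 and Snai2 every ADSF library lay below every NDSF library, as for 19.7% of all genes. Snai1 averaged 273 ± 20.8 TMM in ADSF and 473 ± 11.6 TMM in NDSF (SD, n = 3) and missed the threshold (adjusted p = 0.1091).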

How the data were processed

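RNA was measured in 9 libraries, 3 each of ADSF, NDSF and ADSM, grouped by the deposited labels. The authors mapped reads to mm10 with TopHat, and their notes name Cufflinks, while versions are not stated, and neither are the counting tool nor whether it used strand. The main deposited table gives, per gene and library, the authors' signal of reads divided by a TMM factor, and each value was a whole multiple of 1 read within 0.001 in 100% of cases. A second deposited table for ADSF and ADSM gave equal reads for 140514 of 140514 shared values. Column names for fibroblasts and macrophages of arthritic ankles use abbreviations that differ from the sample titles, and were matched by these abbreviations. FPKM values deposited by the authors for 23351 genes were used for levels between genes. Columns of the authors' own p-values and q-values were not used, and 0 per-sample columns were left unused.

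The main test was limma 3.58.1 in R 4.3.3 on log2(value + 1), with a mean for each of 3 groups, a trend of variance with level, and Benjamini-Hochberg adjustment over 11889 genes reaching 10 or more in 3 or more libraries, at a threshold of 0.05. On this scale changes of genes with few reads come out too small. edgeR 4.0.16 and DESeq2 1.42.0 on the recovered reads, other scalings, pseudocounts and filters, a model of 2 groups, a replicate block and leaving out each library were alternatives. The fit was tested on simulated data with random seed 20260102. Ratios of reads carry 95% intervals that cover counting error only, and 3 reads over a group were the floor for a group at 0.

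The 9 genes and the 20 gene lists were chosen with earlier results of these data known. Named were all 9 genes, up to 4 genes per list and comparison with the smallest adjusted p, the 5 genes nearest Cdh11, and other genes that are no list's leading ones (Cdh1, Cdh15, Cdh19, Ctnnb1, Fjx1, Tmtc3 and Tmtc4) after their values were seen. Gene coordinates come from the main table (mm10), and primers were placed on GENCODE vM21 transcripts of the same build.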

Additional observations from a re-analysis of the deposited data

How the results depend on the processing

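The log2 fold changes of the 6 tested cadherin genes in 3 comparisons, 18 values, were recomputed under 19 alternatives each, 342 values in all. Of these 330 stayed on their side of the threshold, 6 lost the call, 6 gained it and 0 reversed a called direction. Between ADSF and NDSF the uncalled log2 fold changes of Cdh13 (0.21) and Fat4 (-0.18) crossed 0, at -0.17 for Cdh13 without NDSF library 3 and 0.03 for Fat4 without ADSF library 2. All 6 losses were Cdh2 between ADSF and NDSF, whose limma adjusted p was 0.07713 with a pseudocount of 0.5. Its adjusted p was 1.968e-05 to 0.1082 over all alternatives, by limma, edgeR and DESeq2. All 6 gains were Cdh11 in that comparison (adjusted p 0.004193 to 0.2386 over the same alternatives). The count of the 9 genes higher in ADSF than in NDSF was 1 with a pseudocount of 0.5, against 2, and the count lower was 2 with a pseudocount of 5, without the low-value filter, with edgeR, with DESeq2 and in a model of only 2 groups, against 1. Without the filter the added gene was Cdh4, on 4 reads in NDSF, and otherwise it was Cdh11. Leaving out 1 library gave 1 to 2 higher and 1 to 2 lower, and over all genes 347 to 2154 higher, against 1175, and 409 to 1932 lower, against 1343, the lowest counts without NDSF library 2 and the highest without NDSF library 3. With 2 groups in the model 748 genes were higher. Library totals in place of TMM moved the median log2 fold change by -0.33 for ADSF over ADSM and -0.27 for NDSF over ADSM, upper-quartile scaling by -0.14 and -0.16. With library totals the share of calls that were higher was 34.83% against 46.66% for ADSF over NDSF and 44.73% against 57.67% for ADSF over ADSM. The cause of these changes was not tested. Same-numbered libraries did not deviate together (correlations -0.14 to 0.18 over 9 pairs, 5 of 9 highest with their own number), and with a replicate block the counts between ADSF and NDSF were 2 higher and 1 lower, and no call of a cadherin gene changed. Depth limits Cdh4, Cdh6, Fat3, Dchs1 in ADSF (8 reads over the group) and every ADSM value but that of Fat1. In ADSM Dchs1 had 35 reads.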
